A study of Mus musculus with 4 samples.

Results

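Fos, Egr1, Jun, Junb, Atf3, Ier2, Btg2, Dusp1 and Klf2 are immediate early genes, which cells transcribe within minutes of a stimulus without first making new protein. They were read by 14 of the 12422 non-control probe sets on the Affymetrix MG_U74Av2 oligonucleotide array, all those annotated to 1 of the 9 symbols. The 9 genes were chosen by their signals on these same arrays, with the genotype and diet ratios known, so their differences are described here and not tested. A probe set entered the comparisons where its signal averaged 26.9 or more over the arrays, which is the middle value of all such averages, and each gene was read from its brightest probe set. By this filter 10 of the 14 probe sets and 9 of the 9 genes were kept, among 4829 genes in all.

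Liver RNA came from female mice killed at 8 months of age in the fed state. The groups were HSL-null mice on a high-fat diet (FD), HSL-null mice on a normal diet (ND), wild-type mice on FD and wild-type mice on ND. FD gave 58% and ND 11% of energy as fat, and the diets lasted 6 months. HSL, hormone-sensitive lipase, is the product of Lipe and hydrolyses stored acylglycerols and cholesteryl esters, and the knockout was general rather than limited to the liver. The study asked how its loss affects liver metabolism. Livers were pooled before RNA extraction, 4 livers in the HSL-null FD pool and 6 livers in each of the other pools, and each pool went on 1 array. There were therefore no replicates and no test, "higher" and "lower" describe these 4 pools, and so few arrays limit the precision. In a pool, 1 liver with a very high level and a moderate level in all of its livers cannot be told apart, and neither can fewer cells of a type and less RNA per cell.

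Growth factors, cytokines, stress and handling of tissue reach these genes largely through mitogen-activated protein kinases and protein kinase A, which phosphorylate transcription factors already bound at the promoters, among them SRF with its ternary complex partners, CREB and MEF2. Several of the products are transcription factors, such as the AP-1 subunits, and others limit the response, such as the phosphatase that inactivates the kinases. In liver the group is known for its rapid rise after partial hepatectomy and after isolation of hepatocytes. The transcripts are short-lived, so a level reflects the time just before the tissue was frozen.

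The median signal was 28.3 on the HSL-null FD array, 25.4 on HSL-null ND, 25.2 on wild-type FD and 27.8 on wild-type ND, in the linear units of the deposited table. The ratio of the 3′ to the 5′ probe set of beta-actin, a measure of RNA integrity, was 1.32 on HSL-null FD, 1.41 on HSL-null ND, 1.49 on wild-type FD and 1.44 on wild-type ND. The solution lots recorded for the arrays differed between HSL-null and wild type, so an effect of the lot and one of genotype cannot be told apart. Albumin signal was 4680 on HSL-null FD, 5382 on HSL-null ND, 4976 on wild-type FD and 6913 on wild-type ND. Lipe itself had 15.9 on HSL-null FD and 11.9 on HSL-null ND, against 34.0 on wild-type FD and 28.0 on wild-type ND. The only available yardstick of error was the disagreement between 2 probe sets of the same gene, which gave an SD of 0.298 for a log2 ratio over 687 genes. Labelling or hybridisation error common to a whole array is not in it, nor is variation between animals.

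The promoters of the genes on which the results turn are shown as the 250 bases before the annotated start, 5′ to 3′ along the gene, from RefSeq (GRCm38.p6). They are shown as a description of the genes, and any link between a site and the signals was not tested. Windows of 7 of the 9 genes were searched. Egr1 was left out before the search, so its promoter was not read, and no window was found for Ier2. Capitals mark matches, on either strand, to TGACG and TGACGTCA (the CREB and ATF site and its complete palindrome, the first contained in the second), TATAAA, TGACATCA (a variant AP-1 and ATF site) and the MEF2 site.
Fos, chr12:85473640-85473889, + strand: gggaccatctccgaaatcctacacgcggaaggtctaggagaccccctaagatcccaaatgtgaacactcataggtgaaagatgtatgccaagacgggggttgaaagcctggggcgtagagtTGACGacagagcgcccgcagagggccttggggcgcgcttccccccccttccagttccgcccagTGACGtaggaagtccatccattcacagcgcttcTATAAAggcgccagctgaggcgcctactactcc
Jun, chr4:95052223-95052472, - strand: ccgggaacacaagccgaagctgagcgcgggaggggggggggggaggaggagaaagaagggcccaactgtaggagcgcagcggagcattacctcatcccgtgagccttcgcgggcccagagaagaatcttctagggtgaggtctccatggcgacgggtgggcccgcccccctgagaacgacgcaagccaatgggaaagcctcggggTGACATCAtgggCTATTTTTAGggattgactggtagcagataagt
Btg2, chr1:134079156-134079405, - strand: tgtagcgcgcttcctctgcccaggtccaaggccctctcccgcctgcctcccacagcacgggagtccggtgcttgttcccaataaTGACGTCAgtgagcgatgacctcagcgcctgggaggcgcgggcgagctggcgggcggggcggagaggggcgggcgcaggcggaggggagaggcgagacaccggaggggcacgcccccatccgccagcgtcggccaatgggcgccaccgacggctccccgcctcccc
Dusp1, chr17:26508473-26508722, - strand: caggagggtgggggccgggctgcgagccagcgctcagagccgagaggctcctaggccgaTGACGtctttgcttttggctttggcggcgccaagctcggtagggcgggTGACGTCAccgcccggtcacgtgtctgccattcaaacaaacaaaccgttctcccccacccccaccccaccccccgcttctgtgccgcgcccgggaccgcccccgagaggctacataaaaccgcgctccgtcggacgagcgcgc
Klf2, chr8:72318812-72319061, + strand: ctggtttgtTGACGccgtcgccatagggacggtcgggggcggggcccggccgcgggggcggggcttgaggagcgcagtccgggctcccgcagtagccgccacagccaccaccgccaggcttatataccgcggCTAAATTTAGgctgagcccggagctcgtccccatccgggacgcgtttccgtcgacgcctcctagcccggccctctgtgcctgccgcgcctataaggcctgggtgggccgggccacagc

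In these windows TGACG occurred in 6 of the 7 genes, Jun being the one without it, and in 17.8% of the 32851 promoter windows of the same length in the reference table. The complete TGACGTCA occurred in Btg2 and Dusp1 and in 1.55% of all windows. In Fos, TGACG lay 66 to 62 bases before the start, upstream of a TATAAA at 33 to 28 bases. The last bases of the Jun window held TGACATCA at 45 to 38 bases and a MEF2 site at 33 to 24 bases before the start. TGACATCA was found in 2.93% of all windows and the MEF2 site in 0.508%. MEF2 sites also lay in the windows of Klf2, at 118 to 109 bases, and Atf3, at 22 to 13 bases. The searches for TGACATCA and the MEF2 site were added after the windows had been read. No window held a CArG box (the SRF site, in 1.47% of all windows), TGANTCA (the AP-1 site, 6.75%) or GCGTGGGCG (the EGR site, 0.536%). Bases further upstream than these windows, and the promoters of Egr1 and Ier2, were not searched, so nothing is read from this absence. A match describes letters only and was not tested as a binding site.

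The signal was highest on the HSL-null FD array for 8 of the 9 genes, Junb being the exception, whereas this array was the highest of the 4 for 29% of the 4829 genes. Fos, Egr1 and Jun were 2-fold or more above every other array. Only 5 of the 4829 genes, 0.104%, had such a margin on this array. Because the genes were chosen with these values known, the shares serve as a description only. Jun had the largest margin of all genes kept, and Egr1 and Fos were in places 3 and 5. Jun was in place 2 under quantile normalization, 3 with log2(signal + 16) and 8 with no filter on the mean signal. The other members of this group of 5, named because the count is small, were Tsc22d1, which encodes a leucine zipper protein, and Nr0b2, which encodes the orphan receptor SHP. With 16 added to each signal in place of the floor, Egr1 alone of the 9 genes kept a 2-fold margin. Under quantile normalization and median scaling Egr1 and Jun kept it, and the HSL-null FD array was the highest for 7 of the 9 genes, Klf2 being the further exception. The share of all genes that were highest on this array was then 24.0% under quantile normalization and 14.2% under median scaling.

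**Figure D1:**
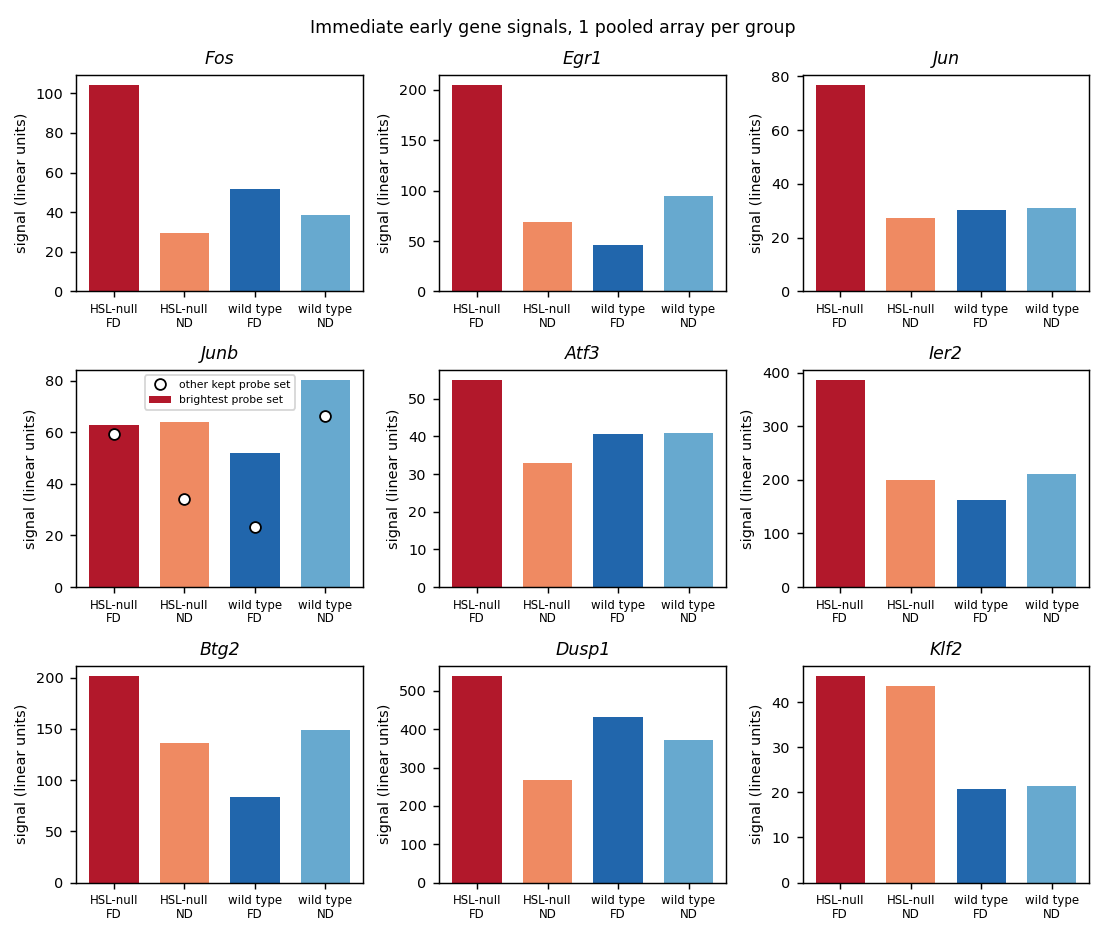
Signals of the 9 immediate early genes (linear units, vertical axes from 0) on the HSL-null FD, HSL-null ND, wild-type FD and wild-type ND arrays, 1 pooled array per bar and so without error bars. Open circles in the Junb panel show its other kept probe set. The HSL-null FD bar is the tallest in 8 of the 9 panels (Klf2 drops out of the 8 under quantile normalization or median scaling), and in the Klf2 panel both HSL-null bars stand above both wild-type bars.

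**Figure D2:**
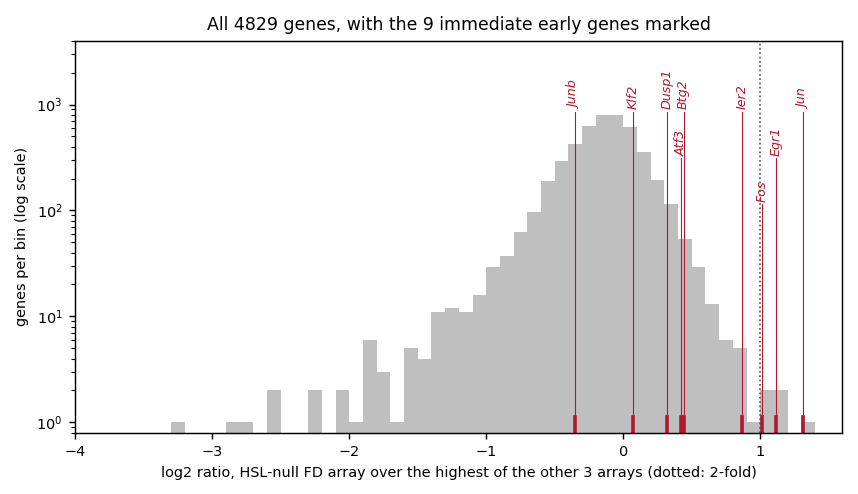
Distribution over 4829 genes of the log2 ratio between the HSL-null FD array and the highest of the other 3 arrays (horizontal axis), with the number of genes per bin on a log scale (vertical axis) and the 9 immediate early genes marked by red lines. The axis starts at -4, with 3 genes to its left. Jun, Egr1 and Fos lie beyond the dotted 2-fold line and Junb lies below 0.

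The AP-1 transcription factor binds DNA as a dimer of a Fos protein with a Jun protein. Fos, whose product needs a Jun partner to bind DNA, had signals of 104.2 on HSL-null FD, 29.7 on HSL-null ND, 51.6 on wild-type FD and 38.6 on wild-type ND (probe set 160901_at). The HSL-null FD array stood apart, and HSL-null ND was the lowest. The HSL-null FD signal was 2.02-fold that of wild-type FD and 3.51-fold that of HSL-null ND, the second largest FD to ND ratio in HSL-null liver among the 4829 genes. The 2.02-fold ratio lies just past the 2-fold line and fell short of it under quantile normalization (log2 ratio 0.89), median scaling (0.85) and the added 16 (0.83). Neighbouring arrays in the order of Fos signals each differed by more than the probe set SD of 0.298. Another Fos probe set, 161716_at, had 7.0 on HSL-null FD, 4.1 on HSL-null ND, 2.7 on wild-type FD and 4.6 on wild-type ND, and only the first of these was above the floor of 6.1. Signals under that floor, the 25th percentile of all values, were raised to it before ratios were taken.

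Jun, which encodes the AP-1 subunit c-Jun that can also pair with itself, had 76.8 on HSL-null FD, 27.3 on HSL-null ND, 30.3 on wild-type FD and 30.9 on wild-type ND (100130_at). The other 3 arrays lay close together, with neighbouring gaps of 0.03 and 0.15 on the log2 scale, under the probe set SD. On FD the HSL-null signal was 2.53-fold the wild-type one, and in HSL-null liver the FD signal was 2.81-fold the ND one.

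Junb encodes an AP-1 subunit that activates transcription more weakly than c-Jun at many sites. Its brightest probe set, 102363_r_at, had 62.7 on HSL-null FD, 64.2 on HSL-null ND, 52.0 on wild-type FD and 80.2 on wild-type ND. Wild-type ND was thus the highest and the HSL-null arrays were nearly level. Its other kept probe set, 102362_i_at, gave a wider spread, with 59.5 on HSL-null FD, 34.0 on HSL-null ND, 23.3 on wild-type FD and 66.3 on wild-type ND. On FD, HSL-null over wild type gave a log2 ratio of 0.27 by the first probe set and 1.35 by the other, a disagreement wider than the probe set SD. Both put wild-type ND first and wild-type FD last, and both carry a suffix that marks a probe set made with fewer probes or relaxed design rules. The size of the Junb difference on FD therefore depends on which probes are read.

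Atf3 encodes a stress-induced member of the ATF/CREB family that dimerises with Jun proteins. Its signals were 54.9 on HSL-null FD, 32.9 on HSL-null ND, 40.6 on wild-type FD and 41.0 on wild-type ND, from a probe set (104155_f_at) whose suffix marks probes shared within a family. The highest array exceeded the lowest by 1.67-fold, short of the 2-fold line. Of its dimmer probe sets, 104156_r_at was above the floor on HSL-null FD alone, at 8.7, and 161645_r_at was under it on every array, at 0.9 to 1.1.

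Egr1, which encodes a zinc finger transcription factor of growth and stress responses, had the largest genotype difference of the 9. Its signals were 205.0 on HSL-null FD, 68.7 on HSL-null ND, 45.8 on wild-type FD and 94.5 on wild-type ND (98579_at). The highest and lowest values were both on FD, HSL-null in the one case and wild type in the other, and the HSL-null FD signal was 4.48-fold the wild-type FD one. That was place 8 among the 4829 genes for HSL-null over wild type on FD. FD was 2.98-fold above ND in HSL-null liver and 2.06-fold below ND in wild-type liver. The 2-fold lower call in wild type was lost under quantile normalization (log2 ratio -0.93), median scaling (-0.90) and the added 16 (-0.84). A further Egr1 probe set, 161802_i_at, was under the floor on every array, at 1.2 to 3.8.

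Klf2 encodes a zinc finger factor of endothelial cells and resting lymphocytes that is induced by shear stress, and its pattern differed from that of the other genes. Its signals were 45.8 on HSL-null FD, 43.6 on HSL-null ND, 20.7 on wild-type FD and 21.3 on wild-type ND (96109_at). Both HSL-null arrays lay above both wild-type arrays, and within a genotype the diets differed by 0.07 and 0.04 on the log2 scale, under the probe set SD. HSL-null over wild type was 2.21-fold on FD and 2.05-fold on ND, and Klf2 was the only one of the 9 genes that was higher in HSL-null liver on ND, joined by Ier2 and Btg2 after median scaling. The wild-type signals lie under the filter level, so Klf2 passed the filter only through its HSL-null signals. With low signals raised to that level the log2 ratios shrank to 0.77 on FD and 0.69 on ND. The summed signal of the 9 kept endothelial markers, 16 of which were listed, was 1087 on HSL-null FD, 1135 on HSL-null ND, 1210 on wild-type FD and 1194 on wild-type ND. Eng, the brightest of them, gave 626.1, 642.7, 765.5 and 719.1 of these sums on the same arrays in that order, and the other 8 summed to 461.2 on HSL-null FD, 492.6 on HSL-null ND, 444.8 on wild-type FD and 474.9 on wild-type ND, a split made after the values were seen. The median log2 genotype ratio of the 9 markers was 0.06 on FD and -0.11 on ND, or -0.11 and 0.02 after median scaling. None of these 9 markers was at 0 or under the floor, and none was 2-fold different between genotypes. Of all genes, 1.86% were 2-fold higher and 0.953% lower on FD, and 0.497% and 1.08% on ND.

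Ier2 encodes a nuclear protein of the early growth response. It had 385.6 on HSL-null FD, 199.7 on HSL-null ND, 162.9 on wild-type FD and 211.6 on wild-type ND (99109_at). One array was high and the other 3 were close, with neighbouring gaps of 0.08 and 0.29. The HSL-null FD signal was 2.37-fold that of wild-type FD and 1.93-fold that of HSL-null ND, just short of the 2-fold line.

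Btg2, an antiproliferative gene that p53 also induces, had 201.8 on HSL-null FD, 136.7 on HSL-null ND, 83.1 on wild-type FD and 148.7 on wild-type ND (101583_at). Here the wild-type FD array was low as well as the HSL-null FD array high. The genotype ratio on FD was 2.43-fold. The log2 FD to ND ratio was 0.56 in HSL-null and -0.84 in wild type.

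Dusp1 encodes the phosphatase that removes phosphate from the mitogen-activated protein kinases and so limits the response. Its signals were 539.2 on HSL-null FD, 268.1 on HSL-null ND, 431.5 on wild-type FD and 371.3 on wild-type ND (104598_at). The HSL-null arrays held both the highest and the lowest value, which differed 2.01-fold. On FD the genotypes differed 1.25-fold. The 2-fold FD to ND call in HSL-null liver was lost under median scaling (log2 ratio 0.85) and with the added 16 (0.97).

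For HSL-null over wild type on FD, 6 of the 9 genes (Fos, Egr1, Jun, Ier2, Btg2 and Klf2) were 2-fold or more higher, beside 1.86% of all genes, and none was 2-fold lower, beside 0.953%. The median log2 ratio was 1.15 over the 9 genes, in a range of 0.27 to 2.16, and 0.07 over all genes. Ratios were above 0 for 9 of 9 genes and for 58.3% of all genes. Fos and Klf2 dropped below 2-fold under quantile normalization, leaving 4 of the 9. Under median scaling and with the added 16 the same 4 genes, Egr1, Jun, Ier2 and Btg2, were left. As the genes were chosen on this contrast, nothing is read from these counts. In all, 90 genes were higher and 46 lower, against 51 higher and 72 lower after median scaling and 63 and 59 after quantile normalization.

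Fewer of the 9 genes passed 2-fold on ND. For HSL-null over wild type on ND, only Klf2 of the 9 was 2-fold higher, beside 0.497% of all genes, and none was 2-fold lower, beside 1.08%. The median was -0.32, in a range of -0.47 to 1.03, and -0.02 over all genes. Ratios were above 0 for 1 of the 9 genes, beside 47.3% of all genes, and below 0 for 8 of the 9 as deposited and for 6 after median scaling, where Ier2 and Btg2 turned above 0. All genes gave 24 higher and 52 lower, or 30 and 36 after median scaling.

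**Figure D3:**
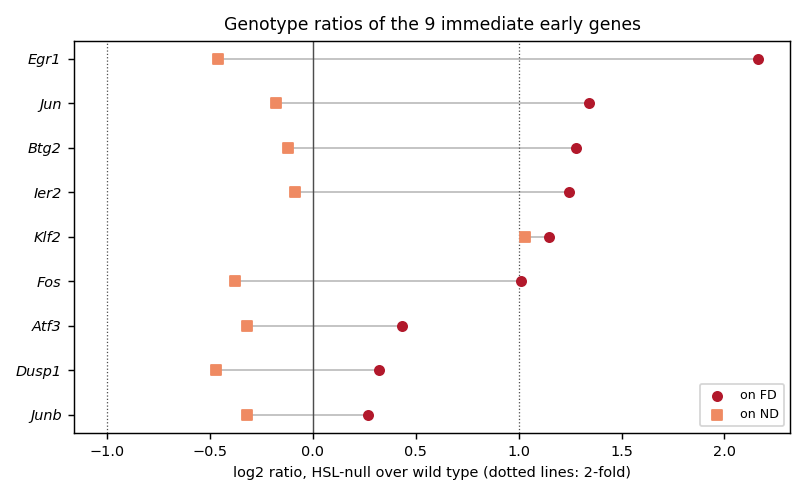
Log2 ratios of HSL-null over wild type (horizontal axis) on FD (circles) and on ND (squares) for the 9 immediate early genes, each ratio from 1 pair of arrays, with dotted lines at 2-fold. Circles lie to the right of 0 for 9 genes, and the square of Klf2 alone lies to the right of 0, joined by Ier2 and Btg2 after median scaling.

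FD was next set over ND within each genotype. The 3 control probe sets for 18S ribosomal RNA moved with diet, with a mean signal of 99.1 on HSL-null FD, 307.1 on HSL-null ND, 84.2 on wild-type FD and 192.2 on wild-type ND, and their part in the diet differences was not tested. In HSL-null liver 4 of the 9 genes (Fos, Egr1, Jun and Dusp1) were 2-fold or more higher on FD, beside 0.828% of all genes, and none was lower, beside 0.621%. Ratios were above 0 for 8 of the 9 genes, or 7 under quantile normalization or median scaling, beside 56.9% of all genes. The median log2 ratio was 0.95, in a range of -0.03 for Junb to 1.81 for Fos, and 0.04 over all genes. This contrast shares the HSL-null FD array with the genotype contrast on FD. In wild-type liver 0 of the 9 genes were 2-fold higher on FD, beside 0.787%, and Egr1 was lower, beside 2.36%. The median was -0.04, in a range of -1.04 to 0.42, and -0.05 over all genes. Of the ratios in wild type, 2 were above 0, for Fos and Dusp1, beside 44% of all genes, and after median scaling or quantile normalization 5 were. In all, FD over ND gave 40 higher and 30 lower genes in HSL-null and 38 and 114 in wild type, or 22 and 48 in HSL-null and 61 and 74 in wild type after median scaling, and 28 and 39 in HSL-null and 48 and 84 in wild type after quantile normalization. The genotype log2 ratio on FD minus that on ND was at least 1 for Fos (1.39), Egr1 (2.62), Jun (1.52), Ier2 (1.33) and Btg2 (1.40), beside 4.93% of all genes. None of the 9 was at -1 or below, beside 1.39%. Klf2, at 0.11, had nearly the same ratio on both diets.

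**Figure D4:**
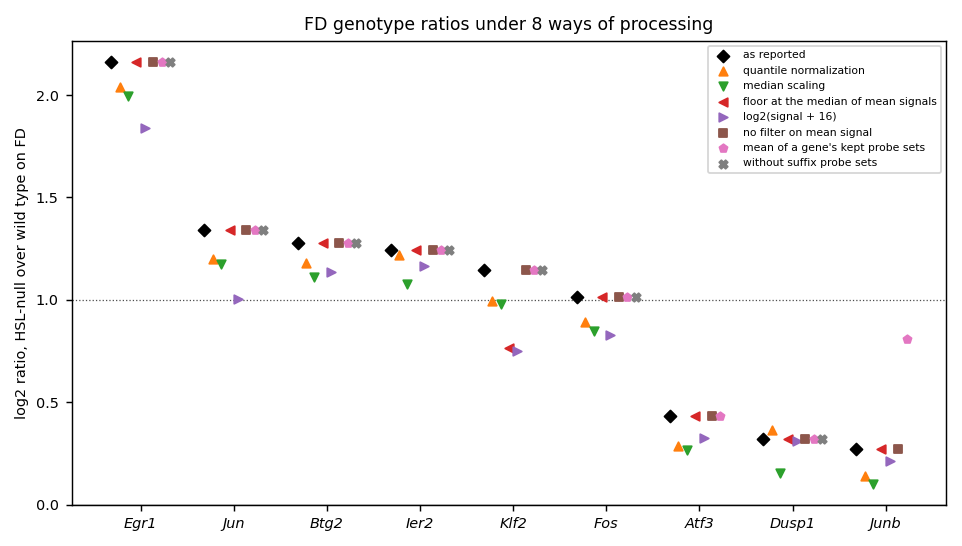
Log2 ratio of HSL-null over wild type on FD (vertical axis) for the 9 immediate early genes (horizontal axis) as reported and under 7 other ways of processing, with a dotted line at 2-fold. Egr1, Jun, Ier2 and Btg2 stay above the line in every setting, and Junb and Atf3 have no value without suffix probe sets.

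Genes for kinases and factors that act upstream of the immediate early genes were listed too. Of 25 listed genes, 17 were on the array and 10 were kept, and none differed 2-fold in any of the 4 comparisons. Among all genes, the share 2-fold higher or 2-fold lower in a comparison ran from 0.497% to 2.36%. For a list of 10, a count of 0 is near these shares, and nothing is read from it. For genotype, their median log2 ratio was 0.15 on FD and -0.01 on ND, or -0.02 and 0.12 after median scaling. Egfr, the epidermal growth factor receptor, came nearest, with signals of 108.0 on HSL-null FD and 55.9 on wild-type FD and log2 genotype ratios of 0.95 on FD and 0.60 on ND. Map2k1, which encodes the kinase MEK1, had log2 ratios of 0.16 on FD and 0.61 on ND, Map2k4 of 0.02 and 0.26, and Mapk8, which encodes the kinase JNK1, of 0.27 and -0.29. Transcript levels do not show the activity of kinases, which is set by phosphorylation.

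A list of other rapid response genes was drawn from general knowledge of such responses, with earlier results of these data known. It leaves out the immediate early genes described above, which were chosen by their signals on these same arrays. That choice shapes what is left in the list, so its counts and the shares beside them serve as a description only. Of 44 listed, 37 were on the array and 27 were kept. On FD, 1 of the 27 was 2-fold higher in HSL-null than in wild-type liver, beside 1.86% of all genes. Another 2 were lower, beside 0.953%. The median log2 ratio was 0.17, and 21 of 27 were above 0, beside 58.3% of all genes. On ND, none was 2-fold different, beside 0.497% of all genes higher and 1.08% lower. The median was -0.22 and 19 of 27 were below 0, while 47.3% of all genes were above 0. After median scaling 13 of the 27 were above 0 on FD and 15 below 0 on ND, so the leaning of the list depends on the scaling. The HSL-null FD array was the highest for 11 of the 27, or 40.7%, beside 29% of all genes, and for none by 2-fold, beside 0.104%. Gadd45g, which encodes a stress sensor protein of the Gadd45 family, was the 1 higher gene, with 113.3 on HSL-null FD, 67.5 on HSL-null ND, 45.3 on wild-type FD and 64.9 on wild-type ND. Its relatives Gadd45a and Gadd45b had log2 genotype ratios of 0.64 and 0.89 on FD and of -0.68 and -0.63 on ND, like Egr1 in sign. Gadd45a was the only gene of the 27 that was 2-fold higher on FD than on ND in HSL-null liver, at a log2 ratio of 1.16. Of all genes, 0.828% were. Sgk1, which encodes a kinase induced by serum and glucocorticoids, had 262.0 on HSL-null FD, 184.4 on HSL-null ND, 131.9 on wild-type FD and 167.4 on wild-type ND, a log2 ratio of 0.99 on FD.

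Some of these genes went the other way. Per1, a clock gene that is also an immediate early gene of light and cAMP signals, had 7.3 on HSL-null FD, 25.8 on HSL-null ND, 27.0 on wild-type FD and 49.9 on wild-type ND, and the log2 genotype ratio on FD was -1.89. Its HSL-null FD signal is barely above the floor. Dusp2, a phosphatase gene of lymphoid cells, had 34.0 on HSL-null FD, 40.0 on HSL-null ND, 69.7 on wild-type FD and 46.7 on wild-type ND, and -1.04 on FD. The AP-1 genes outside the 9 stayed under 2-fold: Fosb had log2 genotype ratios of 0.06 on FD and -0.41 on ND, and Jund had 0.50 and -0.24. Gadd45a, Gadd45b, Fosb and Jund were picked out after their values were seen.

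**Figure D5:**
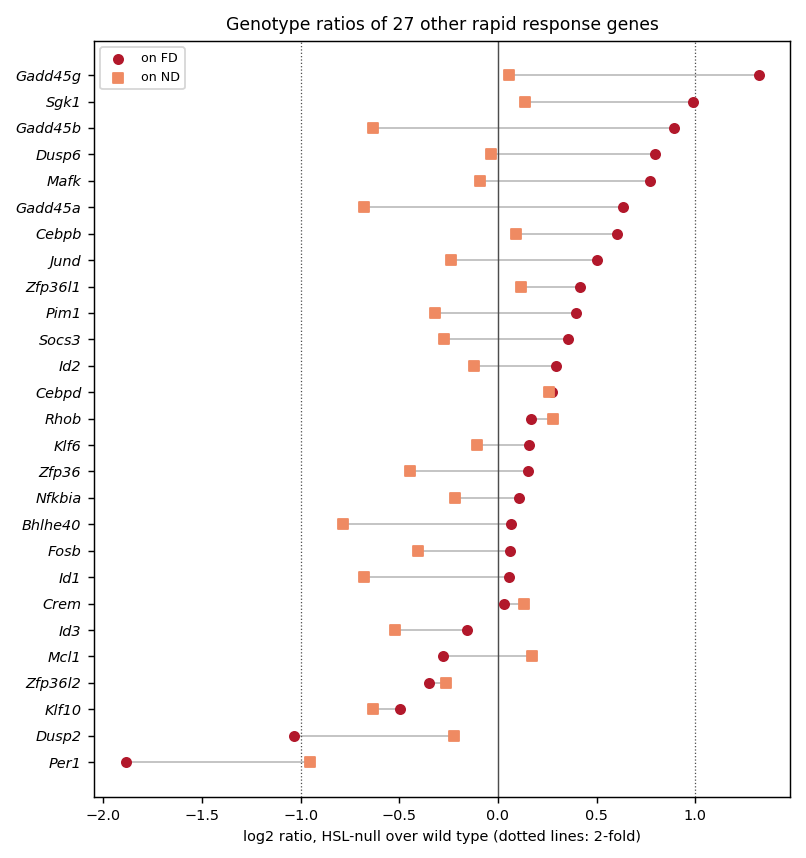
Log2 ratios of HSL-null over wild type (horizontal axis) on FD (circles) and ND (squares) for 27 other rapid response genes, ordered by the FD ratio, with dotted lines at 2-fold. Gadd45g lies to the right of the upper line, Dusp2 and Per1 lie to the left of the lower one on FD, and no square lies beyond either line.

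Genes with a profile like that of the 9 were sought by correlation of the log2 signals with their mean profile over the 4 arrays, among 323 genes above the floor on every array and with 2-fold or more between their highest and lowest array. The 5 most alike had coefficients from 0.94 to 0.995, which over so few arrays rank the genes and carry no more weight. Anp32e, which encodes a histone chaperone, came first, with 121.3 on HSL-null FD, 57.2 on HSL-null ND, 56.3 on wild-type FD and 69.0 on wild-type ND. Uvrag, an autophagy gene, and Nr0b2 followed, and Nr0b2 had 220.4 on HSL-null FD, 104.0 on HSL-null ND, 97.1 on wild-type FD and 99.5 on wild-type ND. Gadd45g and Ighm, the immunoglobulin mu heavy chain gene, completed the 5. Within the 9, the coefficient with the mean of the others was 0.99 for Ier2, 0.96 for Jun and 0.95 for Egr1, and it was 0.48 for Klf2 and 0.09 for Junb.

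Markers of other cell types also differed between the pools. The summed signal of 6 kept leukocyte and lymphocyte markers, of 13 listed, was 551.0 on HSL-null FD, 483.5 on HSL-null ND, 378.8 on wild-type FD and 807.9 on wild-type ND. Of these, 6 of 6 were higher in HSL-null than in wild-type liver on FD, beside 58.3% of all genes. Among them 2 were 2-fold higher (Ptprc and Itgb2), beside 1.86%. On ND 6 of 6 were lower, while 47.3% of all genes were above 0. Under quantile normalization or median scaling 5 of the 6 were higher on FD and 1 of them 2-fold. The HSL-null FD array was the highest for none of the 6 markers, beside 29% of all genes. The 11 kept Kupffer cell and macrophage markers, of 13 listed, summed to 3218 on HSL-null FD, 3411 on HSL-null ND, 2597 on wild-type FD and 3685 on wild-type ND. On FD, 11 of 11 were higher in HSL-null liver (7 of 11 after median scaling), beside 58.3% of all genes as deposited. Of the 11, 0 were 2-fold higher, beside 1.86%. None of the kept markers in these lists was at 0 or under the floor on any array. The 7 exocrine pancreas markers kept, of 12 listed, summed to 383.8 on HSL-null FD, 330.5 on HSL-null ND, 341.0 on wild-type FD and 967.8 on wild-type ND. Prss2 among them was under the floor on both FD arrays and none was at 0. On ND, 6 of the 7 pancreas markers were 2-fold lower in HSL-null than in wild-type liver, beside 1.08% of all genes. In wild-type liver 5 of the 7 were 2-fold lower on FD than on ND, beside 2.36%. Both of these contrasts use the wild-type ND array. On FD, 0 of the 7 were 2-fold different between genotypes, beside 1.86% of all genes higher and 0.953% lower. The 9 hepatocyte markers kept, of 10 listed, summed to 21320.5 on HSL-null FD, 23855 on HSL-null ND, 20410 on wild-type FD and 27641 on wild-type ND. The part of any of these cell types in the immediate early gene differences was not tested.

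The listed heat shock genes, induced when proteins unfold, were mostly lower in HSL-null liver on both diets, and after median scaling 6 of 10 were lower on ND. Of 12 listed, 10 were kept, and 9 of 10 were lower in HSL-null than in wild-type liver on FD and 9 of 10 on ND, with medians of -0.58 and -0.53. The ratios above 0 were those of Hspd1 on FD (0.24) and Hspe1 on ND (0.08). Both genes encode mitochondrial chaperones, so the list is not limited to the cytosol. Of all genes, 58.3% had ratios above 0 on FD and 47.3% on ND. Of the 10 heat shock genes, 2 were 2-fold lower on FD and 1 on ND, beside 0.953% and 1.08% of all genes. Hspa1b had 61.9 on HSL-null FD, 55.8 on HSL-null ND, 285.5 on wild-type FD and 173.0 on wild-type ND. Hspa1a had 18.0 on HSL-null FD, 23.2 on HSL-null ND, 64.1 on wild-type FD and 33.4 on wild-type ND. The HSL-null FD array was the highest for none of the 10 genes, beside 29% of all genes.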

How the data were processed

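The authors deposited linear signal intensities, 1 for each probe set on each array, made with MAS5 (the Affymetrix summary algorithm) per the submitters' processing notes. No version is given in the sources used here. Trimmed means of 100.085 to 100.094 show that the arrays had been scaled alike. The other deposited files used hold run settings without expression values, per the file headers. Of 12422 non-control probe sets, 10833 had 1 gene in the platform annotation, 396 had several and 1193 had none, and only those with 1 were named. Signals were raised to a floor of 6.1 (the 25th percentile) and taken to log2. Probe sets with a mean signal of at least 26.9 were kept (5615, for 4829 genes) and each gene was read from its brightest one. A log2 ratio of 1 in size counted as different, with no p-value. The script was tested on simulated data. The members, gene lists and the count of genes highest on 1 array were chosen with earlier results of these data known. Named genes were the 9 members, Lipe, the up to 4 genes of each list with the largest genotype ratios and the 5 genes most alike in profile; others are said to have been picked after their values were seen. Alternatives were quantile normalization, median scaling, a floor at 26.9, log2(signal + 16), no filter, averaging of the kept probe sets of a gene and no suffix probe sets. Python 3.11.15, numpy 2.4.6 and pandas 2.3.3 were used.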

Additional observations from a re-analysis of the deposited data

Results flagged for a closer look

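Log2 ratios of opposite sign on the 2 diets or in the 2 genotypes, each larger than the probe set SD of 0.298, drew attention to 6 of the 9 genes. Both ratios stayed that large for Egr1 and Btg2 alone after median scaling, and for Egr1, Ier2, Btg2 and Dusp1 under quantile normalization or with log2(signal + 16). With 1 array per group these differences were not tested. The share of all genes that meet this rule was not computed, and the 9 genes were chosen with the ratios known, so nothing is read from the count. For HSL-null over wild type, the log2 ratios were 1.01 on FD and -0.38 on ND for Fos, 2.16 and -0.46 for Egr1, 0.44 and -0.32 for Atf3, and 0.32 and -0.47 for Dusp1. For FD over ND, they were 1.58 in HSL-null and -1.04 in wild type for Egr1, 0.95 and -0.38 for Ier2, and 0.56 and -0.84 for Btg2.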

How the results depend on the processing

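No paired analysis was possible because each group has 1 array. For the same reason no array could be left out. Junb and Atf3 have no value without suffix probe sets, as theirs all carry one. Median scaling shifted the median log2 ratio of all genes from 0.07 to -0.10 for HSL-null over wild type on FD. The number of the 9 genes 2-fold different was 0 for FD over ND in wild type under quantile normalization, median scaling and log2(signal + 16), and 2 (Egr1 and Junb) where the kept probe sets of a gene were averaged. It was 0 for HSL-null over wild type on ND with the floor at the median and with log2(signal + 16), which both shrink ratios of low signals such as those of Klf2. With log2(signal + 16), 1 gene kept a 2-fold margin on HSL-null FD over each other array, and the median of the 9 genes on FD was 0.83. All genes 2-fold different numbered 89, 47 and 46 with the floor at the median for HSL-null over wild type on FD, the same on ND and FD over ND in HSL-null. With log2(signal + 16) they numbered 63, 28 and 33 in those comparisons and 69 for FD over ND in wild type. With no filter, which adds dim probe sets, they numbered 419, 314, 290 and 482 in the same order. Of the 98 recomputed counts and medians, 79 moved by less than 1.5 times or 1 SD, and none of the 9 genes past 2-fold changed sign. The signal of Per1 close to the floor limits the precision of its ratio.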
